A study of Mus musculus with 8 samples.

Results

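The genes described are 8 effectors of regulated cell death: Fas, Casp8 and Bid of the death receptor route of apoptosis, Ripk1, Ripk3 and Mlkl of necroptosis, and Casp4 and Gsdmd of pyroptosis. They were chosen by name, as every non-control probe of the array whose gene name is 1 of the 8. All 8 were found, with 14 probes, and all 8 were among the 25830 genes tested of 37074 gene names on the array. Their levels were measured on one-colour Agilent arrays of whole lungs from bone marrow chimeras, taken 72 hours after diphtheria toxin, which every mouse received. Mice were male and 22 weeks old, and each of 4 groups had 2 mice with 1 array per mouse. LL mice had LysM-DTR marrow and a LysM-DTR host, WL mice wild-type marrow and a LysM-DTR host, LW mice LysM-DTR marrow and a wild-type host, and WW mice were wild type in marrow and host. In LysM-DTR mice the lysozyme M promoter drives the receptor for the toxin, so cells that express it die when the toxin is given. That promoter is active in macrophages, monocytes, neutrophils and alveolar type II cells, so the receptor is not limited to 1 cell type. A chimera can also keep some host blood cells, and how completely the marrow was replaced is not given in the sources used here. Mice without toxin were not analysed here. The labels do not say whether the 2 mice of a group came from separate litters or experiments, so p-values measure only the spread between these mice.

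Regulated cell death runs through proteins that are mostly present before they are needed. Fas, a death receptor on the cell surface, gathers the adaptor Fadd and caspase-8 when its ligand binds. Active caspase-8 cleaves downstream caspases, and it cleaves Bid, which carries the signal to the mitochondria. Caspase-8 also cuts Ripk1 and Ripk3. When it is blocked, these kinases assemble, Ripk3 phosphorylates Mlkl, and Mlkl breaches the plasma membrane, which is necroptosis. In pyroptosis, inflammatory caspases cut gasdermin D, the product of Gsdmd, whose freed end forms membrane pores. Mouse Casp4 encodes the inflammatory caspase often called caspase-11, which senses cytosolic bacterial lipopolysaccharide. In lung, macrophages, epithelium and endothelium can all undergo these forms of death. An array of RNA shows none of the cleavage or phosphorylation steps.

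A level here is the log2 processed signal of a gene's probe minus the 75th percentile of its own array, so 0 is the 75th percentile and a difference of 1 is a 2-fold difference. Levels are compared between arrays for 1 probe and not between genes. A gene was called when its adjusted p in limma, fitted across all 25830 genes, was under 0.05.

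In lungs of LL mice, 4 of the 8 genes, Mlkl, Ripk3, Casp4 and Fas, stood 1.75-fold to 2.72-fold above their mean in WW mice. The other 4 were between 1.04-fold and 1.51-fold above it. None of the 8 passed the test in any of the 7 comparisons made on all 8 arrays. The receptor in the marrow alone, in LW mice, went with differences from WW of at most 0.11 upwards and 0.38 downwards on the log2 scale. The receptor in the host alone, in WL mice, went with levels near those of WW in 1 mouse and near those of LL, or above them, in the other. That disagreement between 2 mice enters the error of every comparison, because the 4 groups share 1 estimate of spread.

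Mlkl, Ripk3, Casp4 and Fas had the largest differences of the 8 genes in LL against WW, though none passed the test on all 8 arrays. The sequences just upstream of these 4 are shown as a description, and their part in the levels was not tested. Each is the 250 bases before the annotated start in RefSeq, GRCm38.p6, written 5′ to 3′ along the gene, and capitals mark a match to a motif that was searched.
Casp4 (chr9:5308599-5308848, plus strand): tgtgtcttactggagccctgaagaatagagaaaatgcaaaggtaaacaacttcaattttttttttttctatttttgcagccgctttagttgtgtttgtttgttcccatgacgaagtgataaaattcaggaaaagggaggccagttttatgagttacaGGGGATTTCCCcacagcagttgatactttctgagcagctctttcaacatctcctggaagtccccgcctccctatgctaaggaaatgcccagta
Fas (chr19:34290409-34290658, plus strand): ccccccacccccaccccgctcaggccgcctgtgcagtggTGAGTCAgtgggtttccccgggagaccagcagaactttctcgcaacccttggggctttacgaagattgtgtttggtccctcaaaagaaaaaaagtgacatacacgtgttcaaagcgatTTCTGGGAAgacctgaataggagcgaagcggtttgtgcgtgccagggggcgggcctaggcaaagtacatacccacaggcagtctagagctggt
Ripk3 (chr14:55788858-55789107, minus strand): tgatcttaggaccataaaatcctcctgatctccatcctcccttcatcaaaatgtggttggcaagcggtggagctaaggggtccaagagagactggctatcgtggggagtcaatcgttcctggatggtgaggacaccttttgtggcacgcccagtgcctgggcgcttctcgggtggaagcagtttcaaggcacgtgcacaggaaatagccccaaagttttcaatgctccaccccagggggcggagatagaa
Mlkl (chr8:111338206-111338455, minus strand): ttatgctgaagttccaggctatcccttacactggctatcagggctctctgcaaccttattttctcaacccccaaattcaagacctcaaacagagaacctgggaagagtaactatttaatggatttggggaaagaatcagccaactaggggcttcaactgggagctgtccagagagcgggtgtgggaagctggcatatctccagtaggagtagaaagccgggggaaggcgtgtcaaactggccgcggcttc
The motifs searched on both strands were the NF-kappaB motif, an interferon-type element of TTTC and TTTC set 2 bases apart, the STAT-type element TTCNNNGAA and the AP-1 element TGANTCA. RefSeq windows were found for 7 of the 8 genes. The capitals in Casp4 mark overlapping matches to the NF-kappaB motif between 93 and 83 bases before the start, and 3.9% of 32851 windows of the same length hold that motif. Casp4 was the only one of the 7 with it. In Fas, TGANTCA lies 211 to 205 bases before the start and TTCNNNGAA 93 to 85 bases before it; 6.75% and 7.02% of all windows hold these. Ripk1, whose main probe differed little between groups, also held TTCNNNGAA, at 108 to 100 and at 11 to 3 bases before 1 of its annotated starts. No window of the 7 genes held the interferon-type element, which 2.98% of all windows hold, and none of the 4 motifs was found in the windows of Ripk3 and Mlkl. A match describes these letters and shows no binding.

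Fas, the death receptor, had levels of 3.10 and 3.53 in the LL mice, 2.17 and 3.07 in WL, 2.20 and 2.11 in LW, and 2.43 and 2.59 in WW. Both LL mice lay above every LW and WW mouse, and the LW mice lay below both WW mice. Fas was 0.81 ± 0.31 (SE) higher in LL than in WW, adjusted p = 0.187. Against LW the difference was 1.16 ± 0.31, a 2.23-fold difference, with an adjusted p of 0.106, the lowest of the 8 genes in that comparison. Of the 8, Fas also had the largest donor by recipient interaction, 1.04 ± 0.44, adjusted p = 0.569: the LysM-DTR host went with more Fas when the marrow also carried the receptor, and the difference between the donors did not pass the test.

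Casp8, the initiator caspase of the death receptors, gave 0.36 and 0.32 in LL, 0.29 and 1.11 in WL, 0.26 and 0.31 in LW, and 0.23 and 0.11 in WW. One WL mouse stood apart from the other 7, which spanned 0.11 to 0.36. LL exceeded WW by 0.17 ± 0.27, adjusted p = 0.712, and WL exceeded WW by 0.53 ± 0.27, adjusted p = 0.486. Bid, which links caspase-8 to the mitochondria, gave -0.40 and 0.38 in LL, -0.68 and 0.05 in WL, -0.97 and -0.995 in LW, and -0.53 and -0.69 in WW. Bid was lowest in both LW mice, and its 2 LL mice differed by 0.78, the widest gap within LL among the 8 genes. Its difference was 0.60 ± 0.33 in LL against WW, adjusted p = 0.295, and 0.97 ± 0.33 in LL against LW, adjusted p = 0.150.

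Ripk1, the kinase that sits between survival and death signals, gave 0.55 and 0.82 in LL, 0.56 and 0.85 in WL, 0.50 and 0.53 in LW, and 0.54 and 0.42 in WW. The 4 mice with a LysM-DTR host lay above the 4 with a wild-type host, but the lowest of the former and the highest of the latter were 0.55 and 0.54. Its host difference was 0.20 ± 0.12, adjusted p = 0.289. Ripk3, the kinase that activates Mlkl, gave 1.35 and 1.41 in LL, 0.29 and 1.89 in WL, 0.09 and 0.26 in LW, and 0.22 and -0.10 in WW. Mlkl, which executes necroptosis, gave 0.49 and 0.75 in LL, -0.66 and 0.76 in WL, -0.81 and -0.77 in LW, and -0.71 and -0.94 in WW.

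Ripk3 and Mlkl thus had the same 3 mice at the top: both LL mice and the second WL mouse. Ripk3 was 1.32 ± 0.48 higher in LL than in WW, a 2.49-fold difference with an adjusted p of 0.172. Mlkl was 1.44 ± 0.43 higher, a 2.72-fold difference with an adjusted p of 0.127, the lowest of the 8. Against LW the differences were 1.20 for Ripk3, adjusted p = 0.188, and 1.41 for Mlkl, adjusted p = 0.129. With each gene's own mean removed, the 2 profiles differed by a root mean square of 0.13 over the 8 mice. Among the 28 pairs of the 8 genes, 1 pair was closer, Gsdmd and Ripk1 at 0.089, whose main probes both varied little.

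Casp4, the lipopolysaccharide-sensing caspase, gave 3.20 and 3.68 in LL, 2.46 and 3.44 in WL, 2.55 and 2.33 in LW, and 2.24 and 2.41 in WW. The same 3 mice were at the top, with a gap of 0.65 to the next. Casp4 was 1.12 ± 0.34 higher in LL than in WW, a 2.17-fold difference with an adjusted p of 0.133, and 1.003 ± 0.34 higher than in LW, adjusted p = 0.154. Gsdmd, the pore former that caspase-11 cuts, gave 1.69 and 1.98 in LL, 1.76 and 1.86 in WL, 1.70 and 1.67 in LW, and 1.78 and 1.76 in WW. Its 8 values spanned 0.30 in all, the narrowest range of the 8 genes, and LL overlapped WW. The difference was 0.06 ± 0.15, adjusted p = 0.825.

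**Figure D1:**
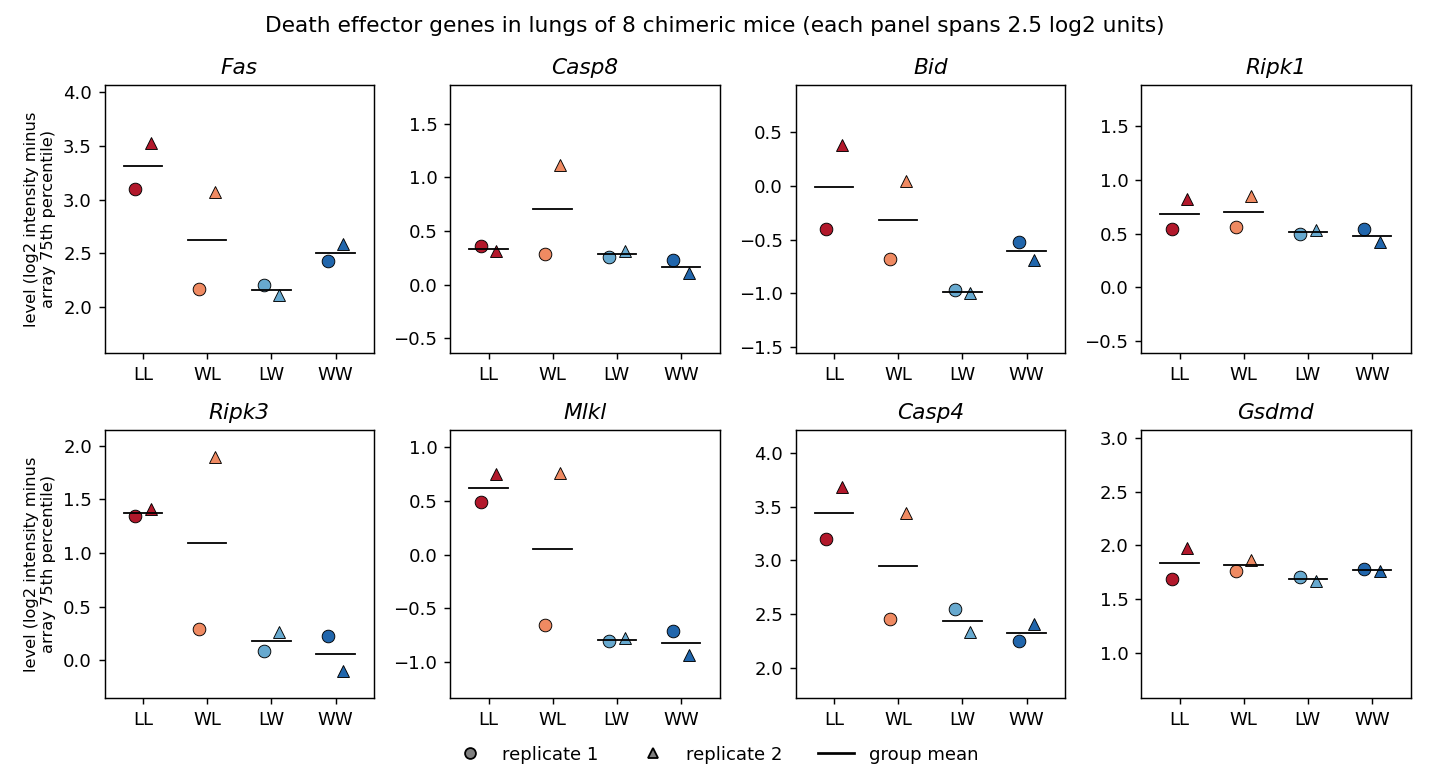
Level of each of the 8 genes (log2 intensity minus the array's 75th percentile, vertical axis) in the 4 groups named donor first and host second; circles are replicate 1, triangles replicate 2 and lines group means. Ripk3, Mlkl, Casp4 and Fas are high in both LL mice and the second WL mouse, whereas Gsdmd spans 0.30 over all 8 mice.

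Across the 8 genes, the counts sit beside those of the whole array as follows. In LL against WW, limma called 0 of 8 at an adjusted p under 0.05, against 3.13% of all genes, and 4 of 8 (Casp4, Ripk3, Mlkl and Fas) had an unadjusted p under 0.05, against 24.8% of all genes. The median difference of the 8 was 0.70 and that of all genes 0.03. Both LL mice lay above both WW mice in 7 of 8 genes, Gsdmd being the exception, and 37.0% of all genes had that order. LL against LW gave 0 of 8 called (2.8% of all genes), 5 of 8 at an unadjusted p under 0.05 (25.7% of all genes), the fifth being Bid, and a median of 0.99 against 0.05. LL lay wholly above LW in 7 of 8 genes, an order that 40.3% of all genes showed. The comparisons of LL with WW and of LL with LW share the LL mice and are not independent.

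WL against WW gave 0 of 8 called, none with an unadjusted p under 0.05, and a median of 0.41 against -0.05 for all genes, of which 0.00387% were called and 8.18% had such a p. Both WL mice lay above both WW mice in 5 of 8 genes (Casp4, Casp8, Ripk1, Ripk3 and Mlkl), an order shown by 17.5% of all genes. LW against WW gave 0 of 8 called and none with an unadjusted p under 0.05, where 0.0542% of all genes were called and 2.2% had such a p. The LW mice lay above the WW mice for Casp8 and below them for Gsdmd, Fas and Bid; 13.8% and 20.1% of all genes had these orders. The median LW difference of the 8 was 0.03.

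For the host's genotype, with LL and WL together against LW and WW, 0 of 8 passed (1.27% of all genes) and 5 of 8 had an unadjusted p under 0.05 (31.2% of all genes). These were Mlkl at 1.14, Ripk3 at 1.12, Casp4 at 0.81, Fas at 0.63 and Bid at 0.63, with adjusted p from 0.106 to 0.138. All 4 mice with a LysM-DTR host lay above all 4 with a wild-type host for Ripk1, Ripk3 and Mlkl, an order that 8.72% of all genes showed. For the donor's genotype, 0 of 8 passed (0.317% of all genes), differences ran from -0.13 to 0.30, and no gene of the 8 had an unadjusted p under 0.05 (8.76% of all genes). The interaction of donor and host gave 0 of 8 (0.0619% of all genes) and also none at an unadjusted p under 0.05 (9.14% of all genes). Host genotype was also slide position: LL and WL arrays lay in one column of the single slide and LW and WW arrays in the other, so the 2 cannot be told apart. Places within a column likewise followed the donor.

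**Figure D2:**
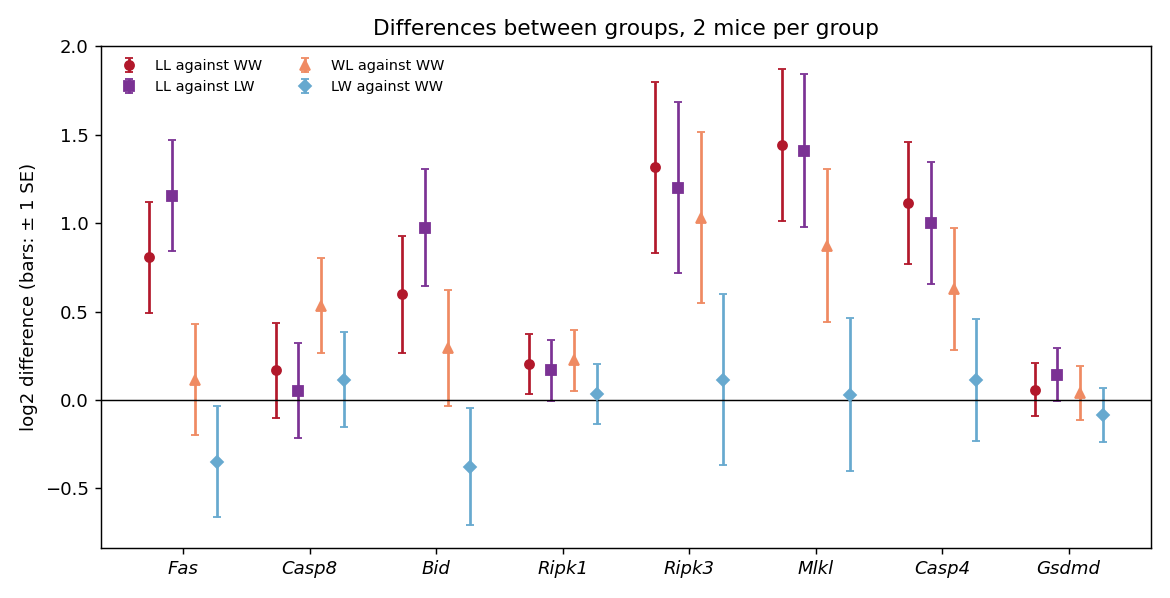
Log2 difference between group means (vertical axis) for each gene in 4 comparisons, with bars of 1 SE from limma on all 8 arrays, 2 mice per group. Differences of LL from WW and from LW are above 0 for all 8 genes and largest for Mlkl, at 1.44 and 1.41; those of LW from WW lie between -0.38 and 0.11.

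For 6 of the 8 genes the spread within a group was widest in WL, from an SD of 0.21 for Ripk1 (0.19 in LL) to 1.13 for Ripk3; for Gsdmd and Bid it was widest in LL, at 0.20 and 0.55. The second WL mouse was higher than the first in all 8 genes, by 0.10 for Gsdmd to 1.60 for Ripk3, with a median of 0.86. Over all genes the median size of the gap between the WL mice was 0.44, whereas in LL, LW and WW it was 0.17, 0.12 and 0.14. For the 8 genes the median size was 0.28 in LL, 0.04 in LW and 0.16 in WW. The second WL mouse exceeded the WW mean by 1.83 for Ripk3, a 3.56-fold difference, and had the highest level of all 8 mice for Casp8, Ripk1, Ripk3 and Mlkl. The first WL mouse exceeded the WW mean by 0.23 for Ripk3.

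Without both WL arrays, 4 of the 8 genes were higher in LL than in WW: Mlkl (adjusted p = 0.00359), Ripk3 (0.00453), Casp4 (0.0134) and Fas (0.0220). That fit called 32.1% of all genes, 17.3% as higher, so the 4 of 8 stand beside a large background. Against LW, 5 of 8 were called without WL: Mlkl (adjusted p = 0.00368), Ripk3 (0.00541), Fas (0.00862), Casp4 (0.0177) and Bid (0.0440), with 18.5% of all genes called higher. The fold changes are those given above, since the WL arrays enter these comparisons only through the spread. Casp8, Ripk1 and Gsdmd were not called in either. In fits on the 4 arrays compared alone, Mlkl, Ripk3, Casp4 and Fas were called in both comparisons, with adjusted p from 0.0106 to 0.0476, where 12.9% and 15.7% of all genes were called higher.

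Leaving out 1 WL mouse moved the WL comparisons as well; the lone remaining mouse is then assumed to vary as the other groups do. Without the first WL mouse, Ripk3 (1.83), Mlkl (1.58), Casp4 (1.12) and Casp8 (0.95) were called higher in WL than in WW, with 18.5% of all genes called higher. For the host's genotype that fit called 6 of 8, all but Ripk1 and Gsdmd, beside 24.6% of all genes. Without the second WL mouse no gene of the 8 was called in WL against WW, and Fas, at -0.34, lay below WW. That fit called Mlkl (0.79) and Ripk3 (0.72) for the host's genotype, beside 6.86% of all genes called higher. It also called Mlkl (0.65) and Ripk3 (0.60) for the donor's genotype and Fas (1.49) and Mlkl (1.246) for the interaction, beside 3.97% and 4.64% of all genes. Leaving out any other single mouse added no call among the 8. Those fits also called fewer of all genes in LL against WW, in LL against LW and for the host's genotype than the fit on all arrays. The lack of calls there says little about the 8.

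Cell type markers also differed between the mice, and not all in the same way. Macrophage and monocyte markers had a low mean level in LL alone. Of 12 such markers, 11 (all but Marco) were called lower in LL than in WW, as were 495 of all 25830 genes. Cx3cr1 and Siglecf were not well above background on every array. The mean log2 level of the 12 was -1.87 and -1.59 in LL, 2.56 and 1.94 in WL, 1.88 and 1.76 in LW, and 2.14 and 1.94 in WW. By that mean the second WL mouse, high in Ripk3, Mlkl, Casp4 and Fas, lay within the range of LW and WW. The summed linear level, in units of the array's 75th percentile, was 39.8 and 43.7 in LL, 482.0 and 222.5 in WL, 501.2 to 560.9 in LW and 584.6 to 596.4 in WW, but most of that sum is 1 gene. Lyz2, the gene of lysozyme M, which alveolar type II cells also express, had levels of 4.67 and 4.94 in LL, 8.70 and 7.36 in WL, 8.99 and 8.84 in LW, and 9.05 and 9.09 in WW. Without Lyz2, a sum taken after its weight was seen, the other 11 markers gave 14.4 and 12.99 in LL, 67.1 and 57.9 in WL, 51.6 and 42.5 in LW, and 53.2 and 52.2 in WW. Of the 11, 5 were highest of all in the second WL mouse. Marco, in contrast, was lowest of all in that mouse, at -1.49. Siglecf, at -2.90, was lower there than in the first WL mouse and the LW and WW mice.

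Lymphocyte markers other than Cd4 and Pax5 were low in both LL mice and in the second WL mouse. These are the same 3 mice that were high in Ripk3, Mlkl, Casp4 and Fas. Cd4 ran from 2.70 to 2.88 over all 8 mice, and Pax5 was lower in the first WL mouse, at -2.32, than in either LL mouse. B cell markers (5) summed to 4.19 and 3.99 in LL, 26.2 and 5.66 in WL, 23.1 and 39.3 in LW, and 21.3 and 26.6 in WW. T and NK cell markers (8) summed to 11.17 and 12.01 in LL, 19.5 and 11.7 in WL and 18.6 to 21.9 in LW and WW. Cd4 weighs heavily in that sum, and Cd8a and Ncr1 were not well above background on every array. The mean log2 level of the 8 was -1.66 and -1.91 in LL, 0.09 and -1.16 in WL, and -0.12 to 0.37 in LW and WW. The sum of 10 lung epithelium markers, 1650 and 1733 in LL, 2070 and 1211 in WL and 2190 to 2518 in LW and WW, was lowest in these 3 mice too, but its genes did not run together. Ager and Hopx, markers of type I cells, were higher in both LL mice than in both WW mice. In the second WL mouse both were lowest of all, at 7.90 and 4.70. Lamp3, a marker of type II cells, was at 2.91 and 2.85 in LL and 3.16 in the second WL mouse against 5.30 to 5.57 in the other 5. Epcam and Cdh1 were highest in the second WL mouse. Fibroblast markers (5) summed to 137.7 and 147.7 in LL, 109.3 and 129.5 in WL and 78.0 to 100.2 in LW and WW. Its genes did not all run together either. Col1a1, Col1a2 and Pdgfra were highest in the same 3 mice, but Tcf21 was lowest in them, at -0.23, -0.96 and -1.12. Dcn in the second WL mouse lay below the first WL mouse and both LW mice. Endothelium markers (6) summed to between 80.6 and 123.6 and neutrophil markers (8) to between 215.5 and 427.6, and neither sum set these 3 mice apart. Some single markers did. The neutrophil marker Ly6g was at 3.19 and 3.47 in LL and 3.07 in the second WL mouse, against 1.61 to 1.96 in the other 5. Kdr, an endothelium marker, was at 3.99, 3.61 and 3.61 against 4.62 to 4.74. Tek was also lowest and Pecam1 highest in these 3 mice, while the other markers of those lists did not set them apart. The neutrophil sum was higher in replicate 2 than in replicate 1 in all 4 groups, as were 5 of its 8 genes, S100a8, S100a9, Cxcr2, Mmp8 and Retnlg. The part of cell makeup in the levels of the 8 genes was not tested, and in whole lung fewer cells of a type and less RNA per cell cannot be told apart.

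Where a gene had several probes, they did not always run together. All 14 probes have positions on mm9 in the array's own annotation; the overlapping exon or UTR was not determined here. The probe that stands for Fas (NM_007987) lies at chr19:34402164-34402223. A second Fas probe, made to transcript variant NM_001146708, lies at chr19:34383733-34383792 and gave 0.21 and 0.80 in LL, -1.14 and 0.11 in WL, -1.005 and -1.07 in LW, and -0.98 and -0.55 in WW. It had the same 3 mice at the top, and its LL against WW difference was 1.27 ± 0.43, adjusted p = 0.153 over all probes. Another probe under the name Fas was made to a Fas mRNA, L15353, that contains the end repeat of an early transposon, and the array's annotation places it at chr4:40555124-40555183, away from the Fas gene. It gave -0.95 and -1.06 in LL, -1.13 and -1.07 in WL, and -1.37 to -1.26 in LW and WW. Its gap between the WL mice was 0.06, against 0.90 for the main Fas probe, and its LL against WW difference was 0.26 ± 0.14, adjusted p = 0.277.

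Ripk1 showed the widest disagreement. Its main probe (NM_009068) lies at chr13:34126830-34126889 and another at chr13:34125152-34125211. The latter gave -0.08 and 0.32 in LL, -0.58 and 0.76 in WL, -0.56 and -0.53 in LW, and -0.31 and -0.74 in WW. On it the LL and second WL mice were the top 3, as for Ripk3, and the LL against WW difference was 0.65 ± 0.43, against 0.20 for the main probe. A dimmer Ripk1 probe at chr13:34106391-34106450, made to an Ensembl transcript, differed the other way, by -0.36 ± 0.21. The adjusted p values of these were 0.374 and 0.326, so the direction for Ripk1 in LL rests on which probe is read. The second Gsdmd probe, annotated over chr15:75695520-75695884, ran from -1.22 to -0.83 and gave 0.13 ± 0.18 where the main probe (NM_026960), at chr15:75697536-75697595, gave 0.06. A second Bid probe was below background on every array. In fits of the 13 other probes on their own, none was called in any of 91 tests, and the lowest adjusted p was 0.105.

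Casp4, Casp8, Ripk3 and Mlkl have 1 probe each. The probe of Casp4 (NM_007609) lies at chr9:5336658-5336717, that of Casp8 (NM_009812) at chr1:58901601-58901660, that of Ripk3 (NM_019955) at chr14:56403949-56404008 and that of Mlkl (NM_029005) at chr8:113835897-113835956. The main Bid probe (NM_007544) lies at chr6:120843464-120843523. Those of Ripk3, Mlkl and Bid are on the minus strand.

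**Figure D3:**
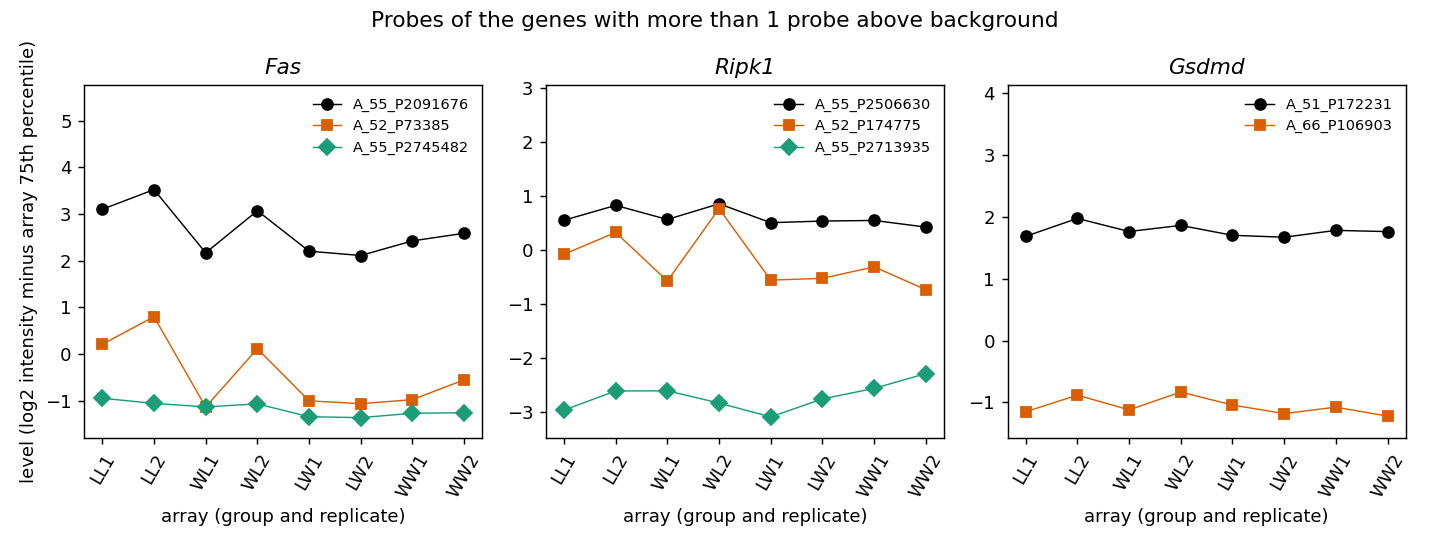
Level of each probe well above background (log2 intensity minus the array's 75th percentile, vertical axis) on the 8 arrays for the 3 genes with more than 1 such probe; black circles are the main probe, lines only join the points of a probe, and in the Fas panel orange squares are the variant probe and green diamonds the probe placed on chromosome 4. The main and second Fas probes peak in the LL mice and the second WL mouse, while the green one spans 0.42 in all.

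Genes that act around the 8 were read from 5 lists: death ligands and receptors, adaptors and brakes of the receptor complexes, the Bcl2 family, the apoptosome with executioner caspases, and pyroptosis. Of 75 names, 69 were measured. In LL against WW, 0 of the 69 were called higher and 3 lower (3.13% of all genes were called). In LL against LW, 0 were higher and 2 lower, and no gene was called in the other 5 comparisons. Without both WL arrays, 32.1% of all genes were called in LL against WW, 17.3% as higher and 3814 of 25830 as lower. The list counts below for that fit stand beside those shares. In it, 11 of the 69 were higher and 18 lower in LL than in WW. All of these are named below; those that did not also pass on all arrays or have one of the 2 smallest p of their list were named after their values were seen.

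Fasl, the ligand of Fas, was the 1 of 10 ligands and receptors called lower in LL than in WW, where 6 of the 10 differences lay below 0. Its levels were -4.66 and -4.93 in LL, -2.70 and -3.71 in WL, -3.03 and -2.28 in LW, and -2.56 and -2.54 in WW, well above background on 7 of the 8 arrays. The difference from WW was -2.25 ± 0.39, adjusted p = 0.0409, and that from LW -2.15, adjusted p = 0.0478, while Fas itself was at its highest in the same mice. Fasl is made largely by T and NK cells, whose markers other than Cd4 were also low in LL. The part of those cells was not tested. Without the WL arrays, Tnf, Tnfsf15, Tnfrsf1a and Tnfrsf10b were called higher and Fasl and Lta lower in LL than in WW. The median of the 10 was -0.29.

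Among 17 adaptors and brakes none passed on all arrays, and their median in LL against WW was 0.22. Tnfaip3, which encodes the ubiquitin editor A20 that restrains receptor signalling, gave 3.54 and 3.71 in LL, 1.41 and 3.29 in WL, 1.29 and 1.35 in LW, and 1.29 and 1.42 in WW. It had the same top 3 mice as Ripk3 and Mlkl, with a difference of 2.27 ± 0.55 and an adjusted p of 0.0873. Traf2, a ubiquitin ligase of the receptor complex, was 0.70 ± 0.16 higher, adjusted p = 0.0787. Without the WL arrays, Tnfaip3, Traf2, Birc3 and Zbp1 were called higher in LL than in WW and none of the 17 lower. Zbp1, the nucleic acid sensor that engages Ripk3, and Birc3, another ubiquitin ligase, were singled out after their values were seen. Zbp1 gave 0.97 and 1.99 in LL, 0.29 and 1.36 in WL, and -0.22 to 0.22 in LW and WW.

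Of 14 measured Bcl2 family genes none passed on all arrays. The pro-survival Bcl2a1d was lowest in LL at 0.16 and 1.37, against 3.80 and 4.42 in WL, 3.30 and 2.55 in LW, and 3.10 and 3.25 in WW. Its difference from WW was -2.41 ± 0.46, adjusted p = 0.0529. Bcl2a1d has near-identical paralogs, so its probe may read more than 1 of them. Bcl2l11, which encodes the pro-death protein Bim, differed by -0.83 ± 0.17, adjusted p = 0.0635. Bcl2l1, which encodes the pro-survival Bcl-xL and was also singled out after its values were seen, gave 6.32 and 6.51 in LL, 4.97 and 6.11 in WL, and 4.87 to 5.29 in LW and WW. Without the WL arrays, Bcl2l1 and Bok were called higher in LL than in WW and Bcl2a1d, Bcl2l11, Bmf and Pmaip1 lower.

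None of the 12 apoptosome and executioner genes passed on all arrays, and their median in LL against WW was -0.10. The 2 with the smallest p, Casp9, the initiator caspase of the mitochondrial route, and Casp6, an executioner, differed by -0.62 and -0.55, with adjusted p of 0.115 and 0.113. Without the WL arrays, Cycs was called higher and Casp2, Casp6 and Casp9 lower in LL than in WW. The differences of Casp9 and Casp6 are opposite in sign to that of Casp4.

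Pyroptosis genes had the lowest median difference of the 5 lists. Of 16 measured genes 2 were called lower in LL than in WW and 14 did not pass. Of the 16 differences 12 lay below 0, with a median of -0.81. Aim2, the sensor of cytosolic DNA, gave -3.97 and -3.42 in LL, -0.77 and -1.72 in WL, -1.05 and -1.06 in LW, and -1.23 and -0.58 in WW. It differed by -2.79 ± 0.39 from WW, adjusted p = 0.0236, and by -2.63 from LW, adjusted p = 0.0308. Nlrp1b, another inflammasome sensor, was not well above background in either LL mouse and was at least 5.94-fold lower in LL than in WW, adjusted p = 0.0225. That bound holds for the processed signal only, since over the other settings the log2 difference was as small as -0.75. With normexp background correction Nlrp1b was not called, adjusted p = 0.0638. Casp4, which triggers gasdermin D cleavage without these sensors, stood 1.12 higher in the same mice. Without the WL arrays, 9 of the 16 were called lower in LL than in WW (Aim2, Casp1, Il18, Il1b, Mefv, Naip2, Nlrc4, Nlrp1b and Nlrp3) and none higher. That fit called 3814 of all 25830 genes lower. Inflammasome genes are expressed strongly by macrophages, whose markers were low in LL; the part of those cells was not tested.

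The 3 calls in LL against WW moved with single arrays, as calls over all genes did. Both counts fell when 1 LL, LW or WW mouse was left out and rose when 1 WL mouse was. None of the 69 genes was called when the first LL mouse or any 1 LW or WW mouse was left out, and 1 was when the second LL mouse was. Fasl ranged from -2.39 to -0.60 over 19 other settings and Aim2, over 20 settings, from -3.12 to -1.27, with the smallest differences and no call under normexp. Nlrp1b, below background in LL, is given no full range. Its smallest difference was -0.75, and it was called in 12 of 19 other settings.

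**Figure D4:**
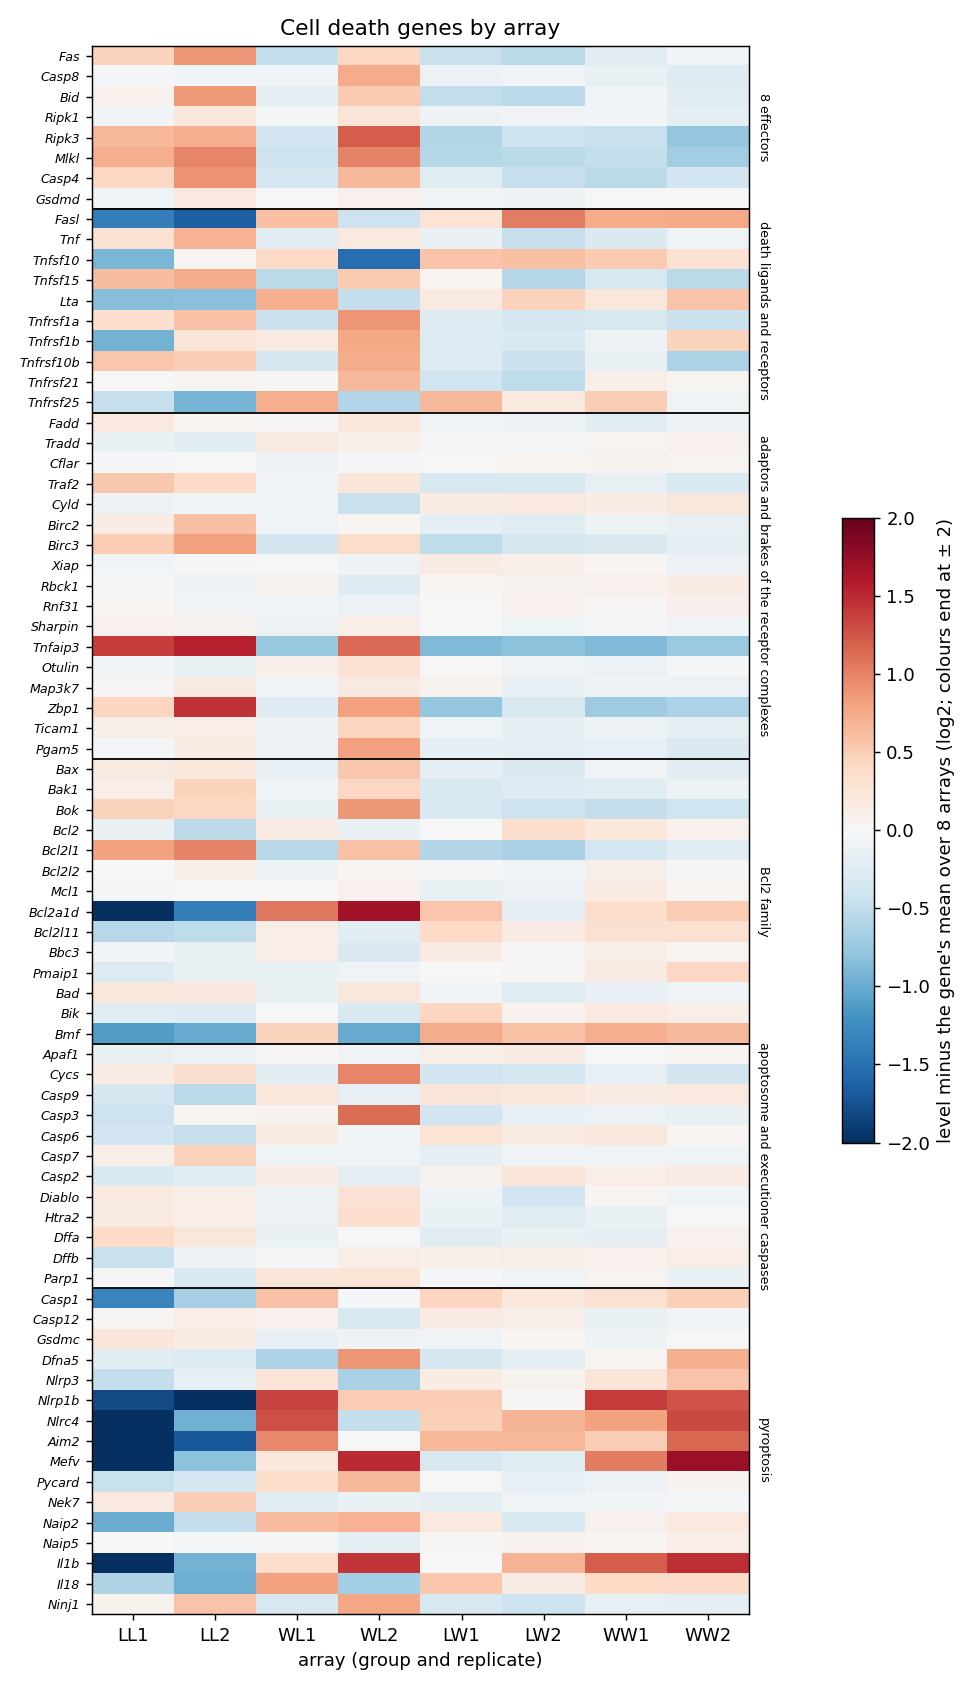
Level of the 8 genes and of the 69 measured genes of the 5 lists on each array, as the log2 difference from the gene's own mean over the 8 arrays (colour, ending at 2 either side of 0). Fas, Ripk3, Mlkl, Casp4, Tnfaip3, Bcl2l1 and Zbp1 are high in the LL mice and the second WL mouse, and Fasl, Bcl2a1d, Nlrp1b and Aim2 are low in the LL mice.

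The genes with profiles most like each of the 8 were taken by the root mean square difference of centred levels over the 8 mice, among 14760 genes well above background on every array. For Ripk3 these were Emp1 (0.078) and Tspan4 (0.086), and for Mlkl Tgm2 (0.079) and Eif6 (0.100). Fas was closest to Vwf (0.088) and Tuba8 (0.092), Casp4 to Efna5 (0.092) and Ino80c (0.095), and Bid to Nuak2 (0.104) and Itga7 (0.105). Casp8 was closest to Klf16 (0.056) and Ttc27 (0.060), Ripk1 to Cd24a (0.031) and Mapre1 (0.038), and Gsdmd to Rad51c (0.039) and Bcorl1 (0.044). None of these 16 is on the lists of cell death genes used here. Past the 2 nearest, Birc3, on the list of adaptors and brakes, had rank 4 for Fas at 0.099. Small values for Gsdmd and Ripk1 go with the narrow ranges of their main probes, since genes that vary little lie close to many others.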

How the data were processed

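Total RNA of 8 whole mouse lungs was labelled with Cy3 and read on one-colour Agilent arrays of 62976 spots, all on 1 slide and in 1 scan. The deposited array files hold intensity values from Agilent Feature Extraction 11.5.1.1, which, per the file headers, were background-subtracted and not scaled between arrays. Values in the deposited series table are on a log2 scale; set against the array files, every column was the same processed signal after log2, shifted by 1 constant per array and not centred by gene. That table served as an alternative only.

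Of 59305 non-control spots, flagged non-uniform ones (0 to 4 per array) were left out and spots of a probe averaged, giving 56605 probes. The log2 processed signal minus the array's 75th percentile (208.6 to 324.4 intensity units) was used. A probe was kept if some group had it well above background in both mice (39602 probes), and the brightest stood for its gene, giving 25830 genes. On each array 66.3% to 72.3% of spots were well above background and 0 were saturated. With 2 mice per group, the number of arrays limits the precision.

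Groups were compared in limma 3.58.1 under R 4.3.3, with 4 group means, 4 residual degrees of freedom, empirical Bayes moderation and Benjamini-Hochberg adjustment over all genes. The fit was tested on simulated data. Tables and figures were made in Python 3.11.15. Promoter windows are RefSeq's on GRCm38.p6. A gene on a background bound is given as at least N-fold, from the lowest signal well above background on each array.

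The members and gene lists were chosen with earlier results of these data known. Named were all 8 members, up to 4 called genes of each pathway list (or, where none was called, the 2 with the smallest p in LL against WW), and the 2 genes nearest each member in profile; pathway genes called only without the WL arrays, Zbp1, Birc3, Bcl2l1 and single marker genes fall outside that rule and were chosen after their values were seen. Alternatives covered background correction, normalization, the filter, the probe rule, the source of values, the spread model, the arrays fitted and a replicate block. Leaving out population outlier spots, fitting probes singly, running the pathway genes through the alternatives and summing macrophage markers without Lyz2 were added after seeing the data.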

Additional observations from a re-analysis of the deposited data

Results flagged for a closer look

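Bcl2a1d, a pro-survival gene of the Bcl2 family, was marked because the host's genotype went with opposite differences under the 2 kinds of marrow. With LysM-DTR marrow both LL mice lay below the LW mean, by -2.77 and -1.56 on the log2 scale, and with wild-type marrow both WL mice lay above the WW mean, by 0.63 and 1.25. The donor by recipient interaction was -3.10 and did not pass in limma, adjusted p = 0.203. None of the 8 death effector genes showed such opposite differences.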

How the results depend on the processing

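Of 1064 values of the 8 genes in 7 comparisons under other settings, 981 kept their direction and their side of the threshold, 51 passed where the fit on all arrays did not, none was lost and 32 changed sign, none of those past the threshold; causes were not tested. The counts of called genes of the 8 stayed at 0 under normexp background correction, quantile normalization, other percentile, filter, probe, flag, table and spread settings. They were 4 in LL against WW and 4 in LL against LW on the compared arrays alone, and 4 and 5 without both WL arrays. Leaving out 1 array at a time gave 0 to 4 (LL against WW), 0 to 4 (WL against WW), 0 to 5 (LL against LW), 0 to 6 (host), 0 to 2 (donor) and 0 to 2 (interaction), with calls only when a WL array was out, and 0 in LW against WW.

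Differences whose sign changed were as follows. In LL against WW, Gsdmd was -0.014 with quantile normalization and ran from -0.086 to 0.20 with 1 array out. In WL against WW, with 1 array out, Gsdmd ran from -0.0084 to 0.090, Fas from -0.34 to 0.56 and Bid from -0.069 to 0.66. In LW against WW, Ripk1 was -0.16 with the mean of its probes and ran from -0.026 to 0.096 with 1 array out, Ripk3 from -0.048 to 0.28 and Mlkl from -0.083 to 0.14. In LL against LW, Casp8 was -0.0090 with the percentile over probes detected on all arrays, and Gsdmd ran from -0.0011 to 0.29. For the donor, with 1 array out, Casp8 ran from -0.33 to 0.081, Gsdmd from -0.11 to 0.039, Ripk1 from -0.066 to 0.079, Ripk3 from -0.20 to 0.60, Mlkl from -0.054 to 0.65, Fas from -0.053 to 0.40 and Bid from -0.23 to 0.16; with the mean of its probes Ripk1 was -0.090. For the interaction, Casp4 ran from -0.12 to 0.87, Gsdmd from -0.042 to 0.25, Ripk1 from -0.20 to 0.088, Ripk3 from -0.63 to 0.97 and Mlkl from -0.17 to 1.246; with the mean of its probes Ripk1 was 0.14.

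Calls among the 69 pathway genes, 3 in LL against WW, were 1 with normexp, 20 on the compared arrays alone, 29 without both WL arrays and 0 to 29 with 1 array out. In LL against LW, where they were 2, they were 0 with normexp, 1 with the other percentile, 0 with no filter, 1 with the stricter filter, 4 with an intensity trend, 23 on the compared arrays alone, 32 without both WL arrays and 0 to 32 with 1 array out.

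Deviations of same-numbered mice from their group means correlated between -0.10 and 0.19, so the numbers were not taken to pair the mice, although neutrophil markers summed higher in replicate 2 in all 4 groups. With the replicate block none of the 8 genes was called, the pathway count was 1 in LL against WW and 1 in LL against LW, and 447 of all genes were called in LL against WW, against 808 without the block. Counts over all genes in LL against WW also moved to 400 with no filter, 6242 on the compared arrays alone, 8285 without both WL arrays and 4 to 8285 with 1 array out. With 2 mice per group the arrays cannot show small differences; all 8 genes were well above background on every array.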
